A study of Triticum aestivum with 20 samples.

Results

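In anthers of wheat plants given 5 days of cold with a 14 h day, 25 of 28894 probe sets (0.0865%) stood apart. These probe sets separated the 2 longest anther samples, of 2.5 and 3.0 mm, from all of the other 18 arrays. They were found by a rule on the log2 expression values: both of these arrays had to lie at least 1 (2-fold) above, or at least 1 below, every other array. The 2 arrays had to reach 8 or more for the higher probe sets, and the lowest of the other 18 had to reach 8 or more for the lower ones. Of the 25 probe sets, 19 were higher (0.0658% of all) and 6 were lower (0.0208%). These values chose the probe sets, so they are given as a description and carry no test. The split depended on the scaling between arrays: it was 28 higher and 1 lower after quantile normalization, and 41 higher and none lower once each array was centred on a common median.

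The anthers came from BS366, a single wheat line with temperature-sensitive genic male sterility, so that all groups shared 1 genotype. Plants that had been vernalized in the field were kept for 5 days in condition A (10 °C and 12 h of light), B (10 °C and 14 h), E (20 °C and 12 h) or F (20 °C and 14 h), and were afterwards moved to 20 °C with 12 h of light. A and B are called cold here, E and F control. Anthers of 5 lengths (1.5, 2.0, 2.2, 2.5 and 3.0 mm) were taken from each condition, and RNA of each of these 20 samples was put on 1 Affymetrix Wheat Genome array, a chip with short probes grouped into probe sets. There was thus no replicate of any condition and length, and the error of a single value is not known from replicates. The sources used here do not say whether an array held the anthers of 1 or of several plants.

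Temperature-sensitive lines of this kind set fertile pollen in warm conditions and become sterile when the cold falls on young anthers. As an anther lengthens, its pollen mother cells pass through meiosis, microspores are released and later become vacuolated, and the tapetum, the innermost wall layer, feeds them and supplies material for the pollen wall. Bulk RNA of a whole anther mixes all of these cells, so fewer cells of a type and less RNA per cell cannot be told apart. The tapetum genes raftin1a and raftin1b, which were used to check the label, were measured on every array: the raftin1a probe set Ta.4195.1.S1_at had 13.43 and 13.38 in B at 2.5 and 3.0 mm, against 9.90 to 14.10 on the other 18 arrays. The labelled tissue thus carried its defining genes.

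**Figure D1:**
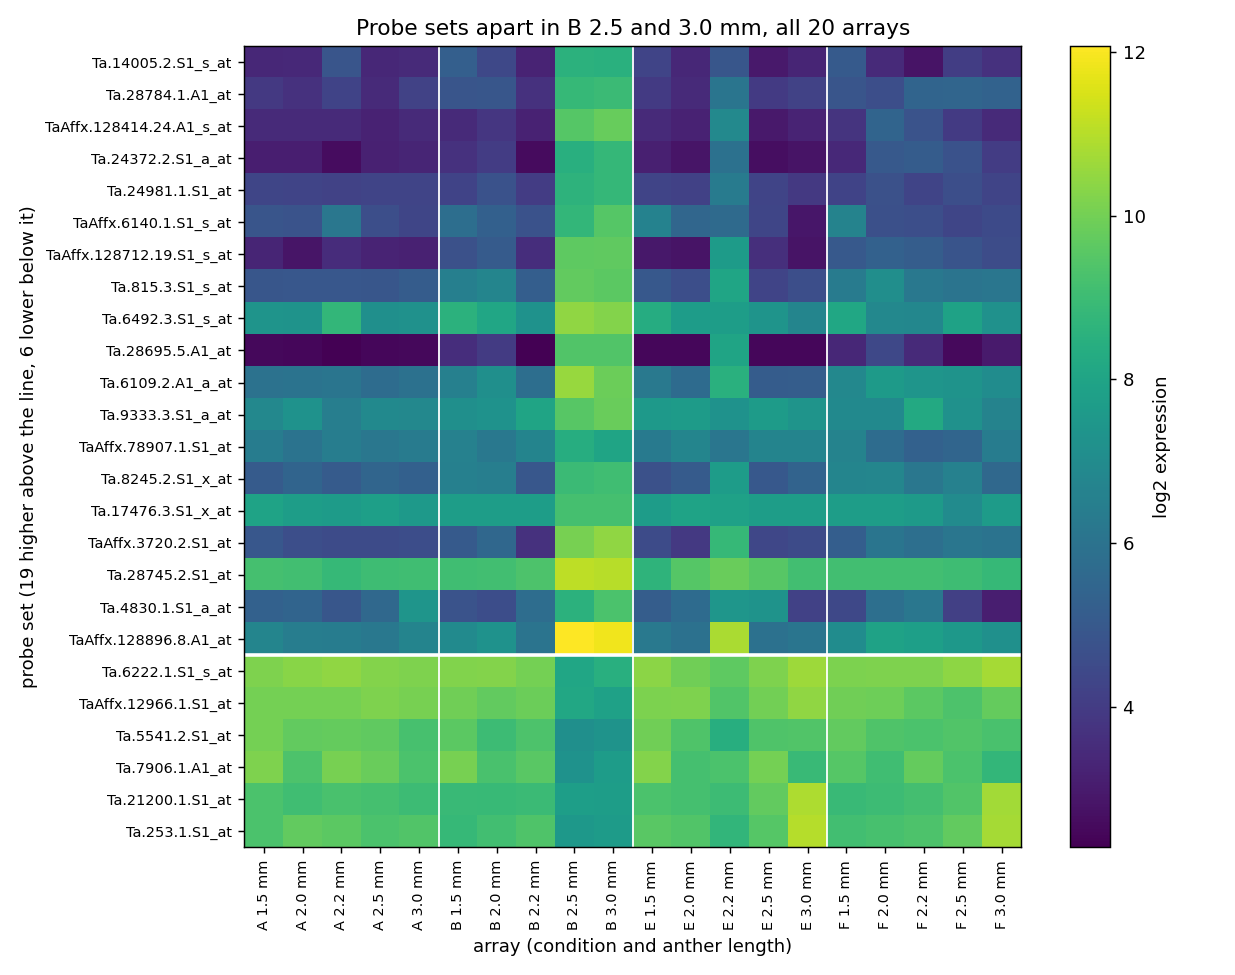
Log2 expression (colour) of the 25 probe sets (rows, the 19 higher ones above the white line) on the 20 arrays (columns, by condition and anther length in mm). The B arrays of 2.5 and 3.0 mm stand out in both blocks, as the rule required. E at 2.2 mm is the array nearest to them for 13 of the 19 higher probe sets.

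Of the 19 higher probe sets, 12 were low elsewhere, with a median of the other 18 arrays under 6, and the medians of all 19 ran from 2.49 to 9.12. In the 2 B arrays the 19 had 8.38 to 12.07 at 2.5 mm and 8.01 to 11.86 at 3.0 mm. The mean of both arrays exceeded the median of the other 18 by 1.46 to 6.93, with a median of 4.41, while over all probe sets the median of this difference was -0.02. The 2 B arrays differed from each other by at most 0.75 in any of the 19. Against the A arrays of the same length, which shared the temperature but had 12 h of light, the 19 were higher by 1.38 to 6.96 at 2.5 mm and by 1.63 to 6.93 at 3.0 mm. The 6 lower probe sets showed smaller differences, of -2.18 to -1.42 with a median of -1.94, and their B arrays differed by at most 0.42.

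The annotation gave a gene to 4 of the 25 probe sets (16% against 2.92% of all probe sets), and all 4 were higher: LOC543254, LOC543424, LOC543448 and LOC778410. They are protein-coding genes that the tables used here name only by number, so no role can be stated for them. For the other 21 probe sets, including all 6 lower ones, no gene was given, and they are called by their probe set names.

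LOC543254 was measured by Ta.28784.1.A1_at, which had 8.86 in B at 2.5 mm and 8.95 at 3.0 mm. On the other 18 arrays its values ran from 3.46 in A at 2.5 mm over a median of 4.23 to 6.10 in E at 2.2 mm. The gap to the nearest array was 2.75, where the rule required at least 1. Within B the probe set was at 4.86, 4.90 and 3.70 at 1.5, 2.0 and 2.2 mm, below the 2 longest anthers as the rule required. A second probe set of the same gene, Ta.28784.1.S1_x_at, did not share this pattern: it had 11.81 and 12.13 in the 2 B arrays, inside its range of 11.18 to 13.06 on the other 18. Both probe sets were designed from the same GenBank record, and the letters A and S in such names mark the antisense and sense orientation of the design.

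For LOC543424, the probe set Ta.24981.1.S1_at had 8.60 and 8.80 in the 2 B arrays. Elsewhere it lay between 3.90 and 6.37, with a median of 4.29, and the highest of these values again belonged to E at 2.2 mm. The next array, B at 2.0 mm, had 4.73. Its second probe set, Ta.24981.2.S1_a_at, had 13.44 and 13.50 against 12.62 to 13.47 on the others. That is 1 array above all 18 and 1 within their range, with a difference that is small beside the 4.41 by which Ta.24981.1.S1_at exceeded its own median.

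TaAffx.6140.1.S1_s_at, assigned to LOC543448, had 8.76 at 2.5 mm and 9.51 at 3.0 mm, the pair with the largest inner difference of the 19. Its other 18 values ran from 2.88 in E at 3.0 mm to 6.67 in F at 1.5 mm, with a median of 4.77. It was 1 of 6 higher probe sets whose nearest array was not E at 2.2 mm, where it had 5.66. The second probe set of LOC543448, Ta.27793.2.S1_x_at, was at 12.94 and 12.95 in the B arrays and at 11.74 to 13.69 elsewhere, so it did not separate them.

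LOC778410 had 3 probe sets, and 1 of them, Ta.6492.3.S1_s_at, met the rule with 10.44 and 10.26. The other arrays gave 6.74 to 8.77 with a median of 7.36, and the nearest was A at 2.2 mm. Ta.6492.3.S1_a_at had 8.34 and 8.26, inside 7.45 to 9.03, and Ta.13231.1.S1_at had 10.73 and 10.62, inside 10.27 to 11.31. For each of the 4 genes, then, 1 probe set stood apart and no other probe set of the gene lay above all 18 other arrays in both B arrays.

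**Figure D2:**
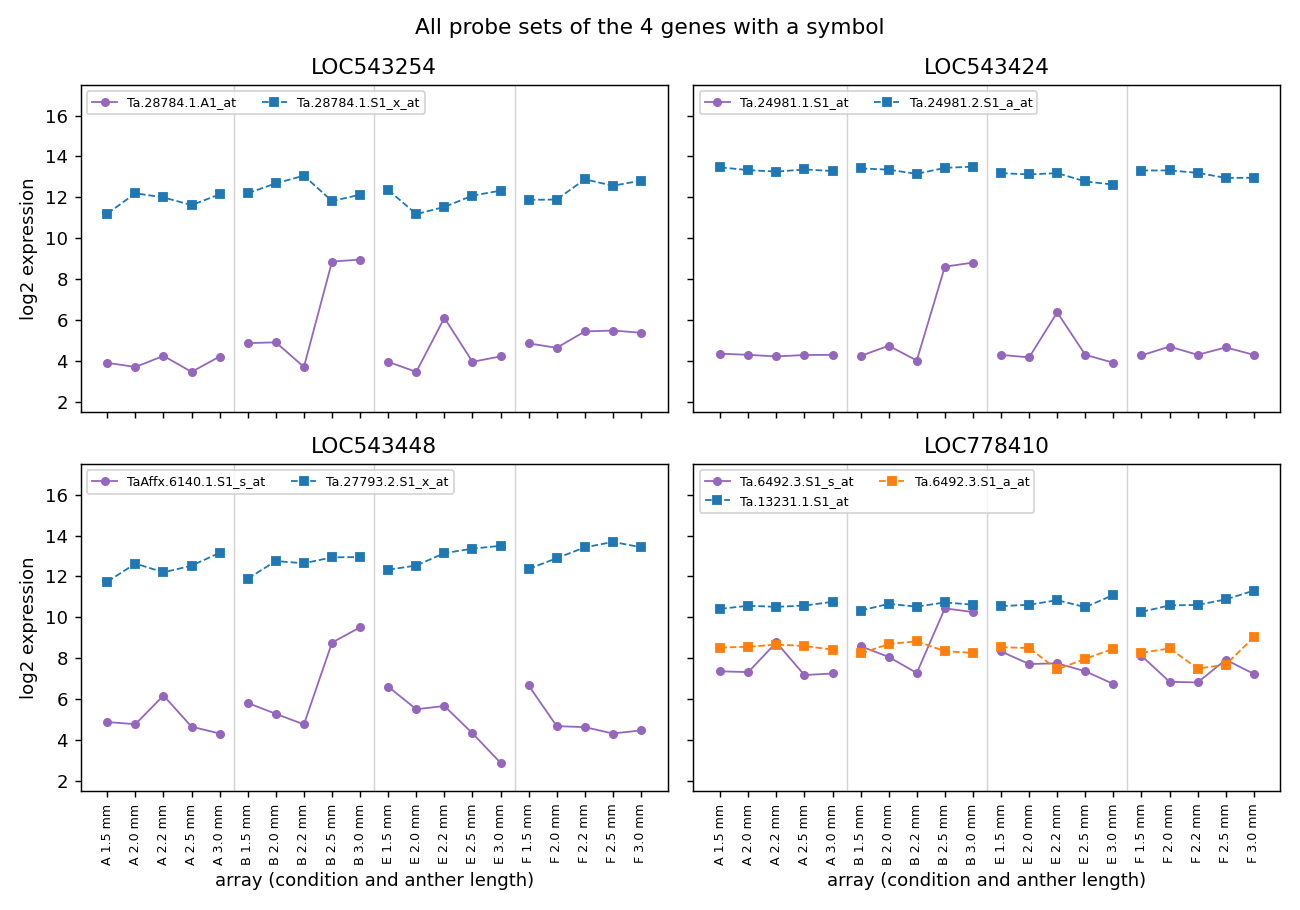
Log2 expression of every probe set of the 4 annotated genes across the 20 arrays (condition and anther length), with points joined within a condition. The solid purple line is the probe set that met the rule, and the dashed lines are the other probe sets of the same gene, which stayed within the range of their own other arrays or, for LOC543424, exceeded it in 1 B array only.

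Among the higher probe sets without a gene, Ta.14005.2.S1_s_at had the widest gap of all 25, 3.26. It had 8.56 and 8.51 in the 2 B arrays and 2.82 to 5.25 elsewhere, with a median of 3.44. Here the nearest array was B at 1.5 mm, and E at 2.2 mm was at 4.92, so this probe set was apart from both.

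TaAffx.128414.24.A1_s_at had 9.48 and 9.81, against 2.94 to 6.90 and a median of 3.46 on the other arrays, and Ta.24372.2.S1_a_at had 8.46 and 8.79, against 2.57 to 5.93 and a median of 3.25. In both, E at 2.2 mm was the highest of the 18. TaAffx.128712.19.S1_s_at had 9.63 and 9.70, and E at 2.2 mm reached 7.64 while the median of the 18 was 3.59. The widest difference from the median belonged to Ta.28695.5.A1_at, which had 9.42 in both B arrays. Its median elsewhere was 2.49, but E at 2.2 mm was at 8.01 and the following array, F at 2.0 mm, at 4.43.

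At the bright end, TaAffx.128896.8.A1_at had 12.07 and 11.86, and its other arrays ran from 5.92 to 10.84, again in E at 2.2 mm, with a median of 6.71. TaAffx.3720.2.S1_at had 10.06 and 10.43 against 3.69 to 8.85. Ta.28745.2.S1_at was the only one of the 19 with a median of the 18 above 8. Its B arrays had 11.10 and 11.01, its other arrays 8.64 to 9.85, and its difference from the median was 1.94.

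For another 3 of the higher probe sets the nearest array was not E at 2.2 mm. Ta.17476.3.S1_x_at had 9.18 and 9.19 in the B arrays and at most 7.96 on all others, with a median of 7.72. TaAffx.78907.1.S1_at had 8.38 and 8.01 against 5.33 to 6.74, and Ta.9333.3.S1_a_at had 9.53 and 9.83 against 6.46 to 8.21. The remaining higher probe sets were Ta.815.3.S1_s_at, Ta.6109.2.A1_a_at, Ta.8245.2.S1_x_at and Ta.4830.1.S1_a_at, with gaps of 1.57, 1.40, 1.26 and 1.13. In all 4 the nearest array was E at 2.2 mm. Ta.4830.1.S1_a_at differed in that A at 3.0 mm, with 7.38, was almost as near as E at 2.2 mm, with 7.44, so that a cold array of 12 h was high as well.

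The 6 lower probe sets had gaps of 1.05 to 1.18, so all lay close to the threshold. Ta.6222.1.S1_s_at had 8.06 and 8.48 in the B arrays and 9.66 to 10.75 elsewhere, and TaAffx.12966.1.S1_at had 8.17 and 7.90 against 9.35 to 10.47. Ta.5541.2.S1_at had the largest difference from its median, with 7.15 and 7.30 against 8.42 to 10.04. For 3 of the 6, Ta.6222.1.S1_s_at, Ta.5541.2.S1_at and Ta.253.1.S1_at, the nearest array was E at 2.2 mm.

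Ta.7906.1.A1_at had 7.26 and 7.68 in the B arrays and 8.77 to 10.27 elsewhere. Ta.21200.1.S1_at had 7.79 and 7.72, and its other arrays ran from 8.87 to 10.85. Ta.253.1.S1_at had 7.49 and 7.66 against 8.71 to 10.98. The latter pair of probe sets had a second feature in common: their highest values were those of the control anthers of 3.0 mm, with 10.85 in E and 10.70 in F for Ta.21200.1.S1_at and with 10.98 and 10.77 for Ta.253.1.S1_at.

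At the threshold, TaAffx.128896.8.A1_at was just inside with a gap of 1.01, and Ta.3263.3.S1_a_at and TaAffx.3720.10.S1_at were just outside with 0.97 and 0.95. Among the lower ones Ta.253.1.S1_at was just inside with 1.05, and Ta.22794.1.S1_at, of gene LOC543111, was just outside with 0.99. On the level side, Ta.22111.1.S1_x_at missed because it had 7.91 at 2.5 mm and 8.02 at 3.0 mm. Without the level of 8, 118 probe sets were higher by at least 1 and 89 were lower.

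The same rule applied to the 2.5 and 3.0 mm arrays of the other conditions found no probe set for A, none for E and 2 for F, 1 in each direction. Without any margin, both late B arrays lay above all others for 1423 probe sets (4.92% of all) and below them for 2976 (10.3%). The counts were 153 above and 83 below for A, 401 and 264 for E, and 646 and 978 for F. At every gap from 0.1 to 2, B had more probe sets than the other conditions on both sides. The values were not rescaled, and the 2 late B arrays had the lowest medians over all probe sets, 6.19 and 6.14, against 6.28 to 6.46. The part of this scaling in the counts, above all on the lower side, was not tested. These counts describe 2 arrays of each condition and have no replicate check.

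**Figure D3:**
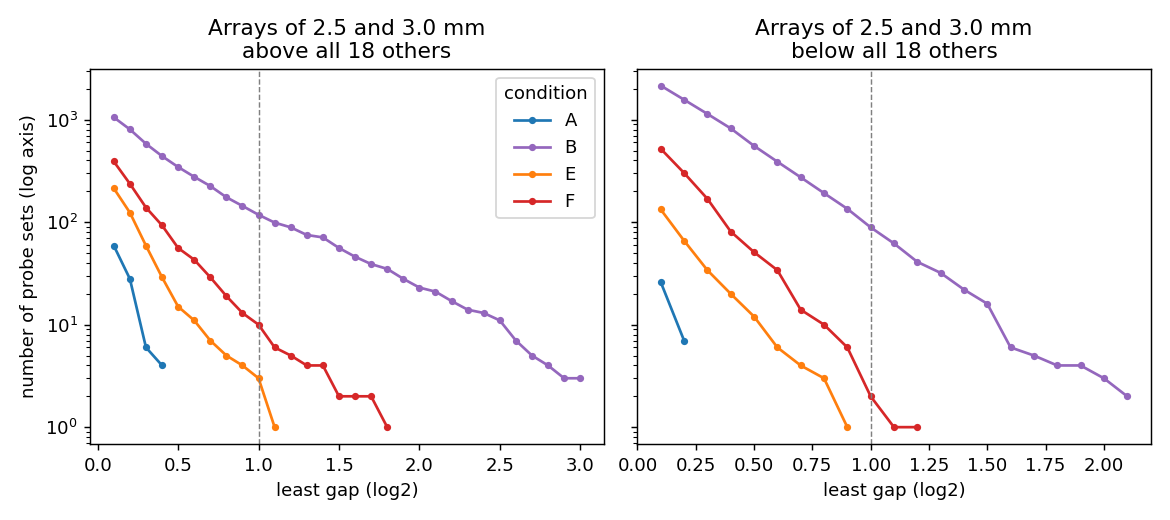
Number of probe sets (log axis) whose 2.5 and 3.0 mm arrays both lay above (left) or below (right) all other 18 arrays by at least the gap on the horizontal axis (log2), for each condition. At a gap of 1 (dashed line) and any level, B had 118 above and 89 below, A none, E 3 and none, and F 10 and 2.

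Whether the 25 probe sets also varied with temperature, photoperiod or stage was tested on the 18 arrays left after the 2 late B arrays were set aside. The test was limma on all 28894 probe sets, with a mean for each temperature and length and a photoperiod term within each temperature, and a call needed a 2-fold difference together with an adjusted p under 0.05. The rule bounded these 18 values from 1 side only. Photoperiod gave no call among the 25, neither in the cold, in anthers of 1.5 to 2.2 mm, nor in control nor as a difference between both, and none among all probe sets (0% each). At an unadjusted p under 0.05 the counts were 3 of the 25 and 2052 of all in the cold, 6 and 5135 in control, and 2 and 2524 for the difference. The 14 h term in the cold had a median of 0.24 over the 19 higher probe sets and of -0.25 over the 6 lower ones, against 0.01 over all, and its lowest adjusted p among the 25 was 0.65 in limma. The terms of the 19 ran from -0.16 to 1.24.

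Cold and control anthers of 1.5 and 2.0 mm gave no call among the 25, against 0.166% and 0.0138% of all probe sets, and at an unadjusted p under 0.05 none of the 25 and 2971 and 1700 of all. At 2.2 mm there was 1 call, Ta.24372.2.S1_a_at, against 8.73% of all. It was lower in the cold by a log2 difference of -2.94 (standard error, SE, 0.64, adjusted p = 0.0183 in limma), with 2.62 in A and 2.57 in B against 5.93 in E and 5.15 in F. The call rests on single arrays: the adjusted p was 0.0805 without A, 0.115 without E and 0.142 without B at 2.2 mm. In all, 11 of the 19 higher probe sets had an unadjusted p under 0.05 in this comparison, 10 of them lower in the cold. So did 2 of the 6 lower probe sets and 8974 of all probe sets. The median difference over the 19 was -1.80, while that over all probe sets was 0.05. E at 2.2 mm entered this comparison, and F exceeded E at this length in 1 of the 19 only.

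With stage, 2 of the 25 changed in control anthers (2.5 and 3.0 mm against 1.5 and 2.0 mm), against 15.4% of all. TaAffx.6140.1.S1_s_at, of LOC543448, fell by 1.87 (SE 0.48, adjusted p = 0.0139 in limma), from 6.61 and 5.50 to 4.32 and 2.88 in E and from 6.67 and 4.68 to 4.31 and 4.47 in F. This call was lost without E at 2.0 mm (adjusted p = 0.0619) and without E at 3.0 mm (adjusted p = 0.0521). Ta.21200.1.S1_at rose by 1.06 (SE 0.09, adjusted p = 6.45e-05).

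In the cold the comparison by stage gave no call. Between the late samples of 12 h and the early cold samples none of the 25 was called, against 0.0104% of all, and none of the 25 and 2733 of all had an unadjusted p under 0.05. In this and the next comparison the late cold samples are the A arrays alone, brought to the mean of both day lengths by the photoperiod term of the shorter anthers. Against the late control anthers, 2 of the 25 were lower, against 13.2% of all: Ta.21200.1.S1_at by -1.23 (SE 0.13, adjusted p = 0.000406) and Ta.253.1.S1_at by -1.12 (SE 0.22, adjusted p = 0.0079). These differences include the photoperiod term and are not the plain differences of the 12 h arrays. For Ta.253.1.S1_at, A had 9.28 at 2.5 mm and 9.41 at 3.0 mm, while E had 9.51 and 10.98 and F had 9.72 and 10.77, so the values lay further apart at 3.0 mm than at 2.5 mm. Ta.21200.1.S1_at had at most 9.18 in A at both lengths, against 9.72 and 10.85 in E and 9.43 and 10.70 in F. With 1 photoperiod term for both temperatures the difference of Ta.253.1.S1_at was -0.98, just under 2-fold.

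The array of control anthers of 2.2 mm with 12 h of light (E) was the highest of the other 18 for 13 of the 19 higher probe sets, against 8.26% of all probe sets. It exceeded the median of the remaining 17 arrays by a median of 2.13 over the 19, and by 0 over all probe sets. Among the 6 lower probe sets it was the lowest of the 18 for 3, against 11.5% of all, with a median difference of -0.56. Without this array, 44 higher and 26 lower probe sets would have met the rule. Leaving out an array can only relax the rule, so each of these includes all probe sets of the main rule by construction. Those added on the higher side were led by TaAffx.9330.1.S1_at, with 7.92 in E at 2.2 mm and 8.75 and 9.22 in the 2 B arrays. These comparisons with E at 2.2 mm were chosen after the values had been seen.

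Other measures of the 2 late B arrays moved with the result and are given here for that reason. A reporter control probe set, which measures no wheat gene and was left out of all counts, had 14.58 and 14.56 in the 2 B arrays. On the other 18 it ran from 12.98 in A at 2.0 mm over a median of 13.44 to 14.21 in E at 2.2 mm. E at 2.2 mm was thus the next highest array after the 2 late B arrays in this control and in most of the 19 probe sets. That the 2 late B arrays were highest in the 19 was set by the rule. Over the 18 arrays other than the 2 late B arrays, 12 of the 19 had a Pearson correlation of at least 0.5 with the reporter, against 4.32% of all probe sets, and 10 had a Spearman correlation of at least 0.5, against 4.97%. The points share the arrays and their scaling. Without the 2 arrays farthest from the median of the reporter, E at 2.2 mm and A at 2.0 mm, 11 of the 19 remained at 0.5 or more, against 3.26% of all. The highest was TaAffx.128712.19.S1_s_at with 0.93, and 0.87 without those 2 arrays.

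For 7 of the 19 the correlation with the reporter was under 0.5. Among these, LOC543448 (TaAffx.6140.1.S1_s_at) had 0.33 and LOC778410 (Ta.6492.3.S1_s_at) 0.30, Ta.28745.2.S1_at had 0.22, and Ta.17476.3.S1_x_at, Ta.9333.3.S1_a_at, Ta.4830.1.S1_a_at and TaAffx.78907.1.S1_at lay between -0.36 and -0.01. The 6 lower probe sets had -0.74 to -0.11, with 2 at -0.5 or less, against 6.06% of all. The threshold of 0.5 was set after the values had been seen. The part of this control, and of whatever it follows, in the result was not tested.

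**Figure D4:**
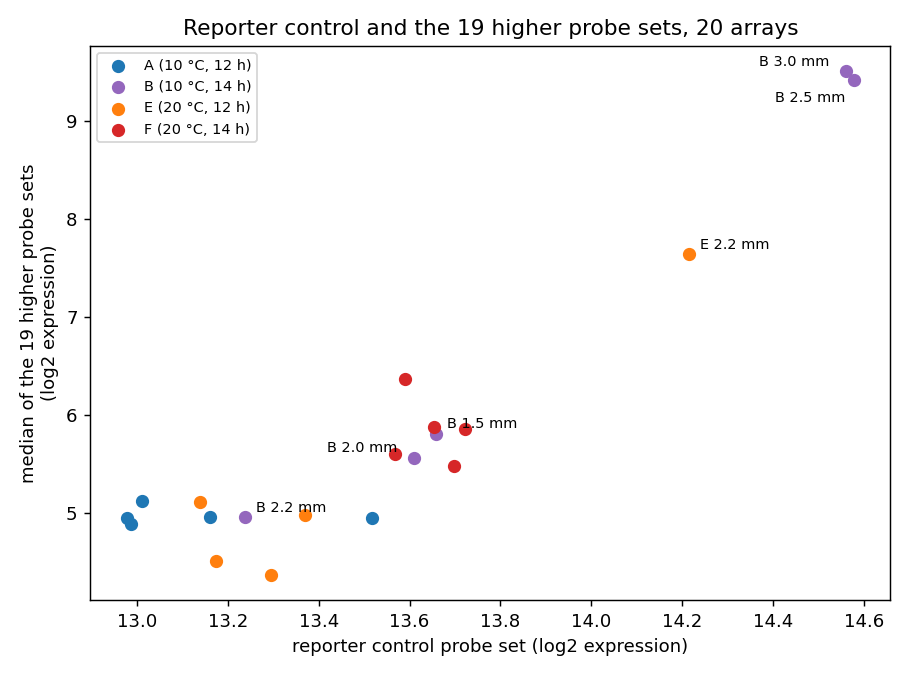
Median log2 expression of the 19 higher probe sets against the log2 value of the reporter control, 1 point for each of the 20 arrays, coloured by condition. B at 2.5 and 3.0 mm (9.42 and 9.51 against 14.58 and 14.56) and E at 2.2 mm (7.64 against 14.21) lie apart from the other 17 arrays, whose reporter values stay at 13.72 or less. The height of the 2 B points follows from the rule that chose the 19 probe sets.

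The 2 late B arrays also had the lowest medians over all probe sets, 6.19 and 6.14, against 6.28 to 6.46 on the others. Their interquartile ranges were 4.30 and 4.26, against 4.29 to 4.45, and 421 and 378 probe sets sat at the lowest value that all arrays share, against 379 to 508. They correlated at 0.984 with each other over all probe sets, and with other arrays at most at 0.964 (B at 2.2 mm, for the array of 2.5 mm) and 0.968 (A at 3.0 mm, for that of 3.0 mm). The difference between B and A at 2.5 mm correlated at 0.68 with that at 3.0 mm over all probe sets, which are not independent replicates. The sources used here do not say which arrays were labelled, hybridized or scanned together, so an effect of such handling and an effect of the condition in long anthers cannot be told apart.

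The names of the probe sets carry information on their design. On this chip an ending in _s marks probes shared by transcripts of different genes, _x a risk of binding unrelated transcripts, and _a probes shared by variants of 1 gene. Of the 25, 7 ended in _s (28% against 6.41% of all probe sets) and 13 in any of the 3 (52% against 31.5%). The antisense letter A was found in 6 of the 25 (24% against 20.8%). In 5 of the 25, all higher, at least 3 arrays held an identical value, against 41.9% of all probe sets.

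Of the 19 higher probe sets, 17 had other probe sets of the same sequence cluster, which is the leading part of the name, against 44.6% of all probe sets. These relatives numbered 74 in all. These 74 were not chosen by the rule: 17 of them (23.0%) lay above all 18 other arrays in both late B arrays, against 4.92% of all probe sets, 2 of them by at least 1, and none lay below. Their median difference was 0.32. The 2 were TaAffx.128896.6.A1_at, with 7.22 and 7.09 against at most 5.37, and Ta.6109.2.A1_at, with 5.34 and 4.76 against at most 3.34. The 17 were not spread evenly, and many came from the clusters TaAffx.128712, TaAffx.128896 and TaAffx.3720. Some, such as Ta.6109.2.A1_at, carry the same design number as the member itself. Relatives may share probes with each other and with the member, so the 23.0% is a description and no independent support.

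For 12 of the 19, the brightest of the related probe sets had a median of at least 10 on the other arrays, from 10.29 to 14.27. These bright relatives differed between the 2 late B arrays and their own median by -0.20 to 0.72. Some of them lay near the top of the scale, where the highest value of the 2 late B arrays was 14.73 and 14.90. A difference of a probe set near saturation can be compressed, so for these the values do not show how far a transcript changed. Others lay lower: Ta.28695.2.S1_s_at had a median of 10.29 and a difference of 0.50, and Ta.28784.1.S1_x_at had 12.17 and -0.20. Compression was not tested. In the cluster of TaAffx.3720.2.S1_at, TaAffx.3720.1.S1_at had 14.42 in both B arrays and 13.58 to 14.32 elsewhere, a difference of 0.27, where TaAffx.3720.2.S1_at itself differed by 5.46. TaAffx.128712.18.S1_s_at had 13.59 and 13.65 against 11.95 to 13.65. In the cluster of TaAffx.128414.24.A1_s_at the brightest relative was TaAffx.128414.1.A1_x_at, annotated as rbcl, a name of the large subunit of the carbon-fixing enzyme Rubisco, with 14.47 and 14.51 against 13.84 to 14.69.

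Probe sets that were dim on the other arrays, with a median under 8, numbered 20624, and 3.41% of them had a relative of 10 or more. Among the 18 higher members of this kind, 11 had one. The level of 10 was chosen after the values had been seen, and signal from bright relatives was not tested as a part of the result.

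The 6 lower probe sets had 11 relatives in 5 clusters. Of the 11, 5 (45.5%) lay below all 18 other arrays in both late B arrays, against 10.3% of all probe sets, none by 1 or more, and their median difference was -0.82. Ta.5541.1.S1_at had 7.86 and 7.64 against 8.65 to 9.97, Ta.5541.2.S1_x_at 6.91 and 6.64 against 7.73 to 9.15, and Ta.5541.3.S1_at 7.33 and 7.18 against 8.03 to 9.57. The fourth relative in this cluster, Ta.5541.1.S1_a_at, did not share the pattern, with 8.39 and 8.37 inside its range of 7.39 to 8.90 and a difference of 0.34 from its median. Probe sets of a cluster may share probes and are not independent measurements.

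Genes with a known role were looked up in 10 short lists drawn from the annotation, 74 probe sets in all, and none was among the 25. A probe set is counted here as above or below all others only where both late B arrays were. None of the 17 photosynthesis probe sets was, with a median difference of 0.05, though TaAffx.128414.72.S1_at of rbcl had 2.62 at 2.5 mm, just under its lowest other value of 2.64, and 3.79 at 3.0 mm. The 18 probe sets of the histones H2A and H2B, which package newly made DNA, had a median of -0.69, and 1 of them lay below all others. Of 10 tubulin probe sets, which measure the building blocks of microtubules, 2 lay below all others, with a median of -0.28. Both of them, Ta.214.2.A1_at and Ta.214.2.A1_x_at, belong to the same gene, Tubb5, and lay below by 0.34 and 0.39 only. For Ta.214.1.S1_at and Ta.214.1.S1_x_at of that gene the B arrays lay within the range of the others.

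Of 8 probe sets for translation, 1 lay above and 1 below, with a median of 0.14. The 4 raftin probe sets were higher than their medians by 0.78 to 1.20, within the range of the other arrays. Among 9 antioxidant and defence probe sets 1 lay above all others, Ta.1200.1.S1_at of the xylanase inhibitor xip, with 7.49 and 7.68 against at most 7.39. Ta.1200.1.S1_x_at of the same gene did not, with 6.86 and 7.34 against a highest value of 7.43. Of 4 for starch and sugar, 1 lay above all others, Ta.242.1.S1_at of AGP-S, a subunit of the starch-making enzyme ADP-glucose pyrophosphorylase, with 11.45 and 11.41 against at most 11.38. The 2 probe sets for the dehydration and embryo genes Em and Rab15, the 1 for the lipid transfer protein gene LTP3 and the 1 for the cell wall gene XTH lay within the range of the other arrays in at least 1 of the 2 B arrays. Beside these, 4.92% of all probe sets lay above and 10.3% below, with a median of -0.02.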

How the data were processed

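The values deposited by the authors were log2 expression, with 1 column for each Affymetrix Wheat Genome array. The submitters' processing notes name MAS5; the sources used here give neither its version and settings nor the scaling between arrays. All 20 arrays share their lowest value, 2.28, and 12103 probe sets hold at least 3 equal values, so the spread of dim probe sets can be understated. Of the entries, 1 reporter control was left out, which left 28894 probe sets. Values were used as deposited. Gene symbols came from the platform annotation (845 probe sets, 844 matched by gene ID to the RefSeq gene table of wheat). The number of arrays limits the precision.

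The rule was read as both late B arrays at 8 or more. The members and lists were chosen with earlier results of these data known, the symbols of the lists after the annotation had been seen. The genes named are those with a symbol, the 5 widest gaps in each direction, those next to the threshold and members of the lists. Other members and relatives were named after their values were seen.

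For tests, limma 3.58.1 was run under R 4.3.3 on the 18 arrays without the 2 late B arrays, with 6 residual degrees of freedom, variances moderated with a trend, and Benjamini-Hochberg adjustment over 28894 probe sets in each of 9 comparisons. The arrays of 12 h and 14 h served as replicates of a temperature and length after the photoperiod terms, and p-values measure only the spread left between them. The scripts were tested on simulated data. Alternatives were quantile normalization, median centring, a floor on dim values, other thresholds, a filter on low values, no variance trend, 1 photoperiod term, unadjusted p-values and leaving out each array.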

Additional observations from a re-analysis of the deposited data

How the results depend on the processing

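The 2 late B arrays are 1 array per length, so the rule has no replicate check, and p-values of the 18-array test rest on arrays of different day length. No paired analysis was possible because the labels give no replicate numbers and each condition and length has 1 array.

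The number of lower probe sets was 1 after quantile normalization, and median centring gave 41 higher and 0 lower. All 19 higher probe sets were kept under both scalings. For median centring this is no check, because the 2 late B arrays had the lowest medians (6.19 and 6.14, against 6.28 to 6.46). Centring could therefore only widen the gaps of higher probe sets and narrow those of lower ones. The 2 late B arrays also had the lowest upper quartiles, 8.19 and 8.15, against 8.30 to 8.38. Quantile normalization raised their values near that level in the same direction. Keeping all 19 is therefore a weak check under quantile normalization as well. Gaps of 0.5, 1.5 and 2 gave 90, 8 and 6 higher and 105, 0 and 0 lower probe sets. Levels of 7 and 9 gave 29 and 11 higher and 18 and 2 lower ones. No level threshold, an alternative chosen after seeing the data, gave 118 and 89. Leaving out each array in turn gave 19 to 49 higher and 6 to 32 lower probe sets. The counts could not fall, because leaving out an array can only relax the rule. They were 49 and 32 without B 3.0 mm, and 44 and 26 without E 2.2 mm. The lower ones numbered 13 without B 2.5 mm and 11 without B 2.2 mm.

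Among the 25, calls between cold and control at 2.2 mm numbered 3 with 1 photoperiod term, 10 at an unadjusted p and 0 to 12 with each array left out (12 without F 2.2 mm, 2 without E 2.0 mm or F 2.0 mm, 0 without A 2.2 mm, B 2.2 mm or E 2.2 mm). Calls between late and early control anthers fell to 1 with the filter on low values and were 1 to 3 with each array left out (1 without E 2.0 mm or E 3.0 mm, 3 without E 1.5 mm or E 2.5 mm). Calls between late cold and late control anthers fell to 1 with 1 photoperiod term and were 2 to 3 with each array left out, except A 2.5 mm and A 3.0 mm, without which the comparisons of late cold anthers could not be fitted. Photoperiod in control had 3 at an unadjusted p. For these alternative runs the shares over all probe sets were not counted. Directions were compared only for the calls of the main run, and none of these was reversed in an alternative run.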
